A study of Mus musculus with 9 samples.

Results

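The genes described here are 34 endoplasmic reticulum (ER) stress and folding genes, chosen by symbol from the 30579 genes of an RNA-sequencing table of mouse bone marrow mesenchymal stromal cells, which form the supporting tissue around blood-forming cells. All 34 were found in the table, each on 1 row with values in all 9 libraries. The members are 9 lumenal chaperones and co-chaperones, 2 lectin chaperones, 6 disulfide and prolyl isomerases, 6 genes of ER-associated degradation, 3 stress sensors, 3 stress transcription factors and regulators, and 5 genes of translocation into and export from the ER. Their levels were set beside that of Igkc, the constant region of the immunoglobulin kappa light chain, which cells of the B lineage make and which plasma cells secrete in bulk.

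The libraries fall into 3 groups of 3. Young controls were 3 months of age, aged controls were 18 months of age, and a group labelled aged Thbs1 knockout was 18 months of age as well. Thbs1 is the gene of thrombospondin-1, a glycoprotein released into the matrix. The sources used here do not give the strain, the knockout allele, or whether the deletion was global or restricted to a cell type. All 3 groups share the handling: an antibody to the endothelial protein VE-cadherin was injected behind the eye 10 minutes before death, cells from the long bones were sorted by flow cytometry into TRIzol-LS, and 2 ng of total RNA went into SMART-Seq v4 libraries. Nothing says that the replicates were different mice, so p-values measure the spread between libraries, which may be technical.

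Proteins that enter the secretory pathway fold in the ER with the help of chaperones and disulfide isomerases, and those that fail are returned to the cytosol and degraded. When unfolded proteins build up, the membrane sensors Atf6, IRE1 (Ern1) and PERK (Eif2ak3) start the unfolded protein response. IRE1 splices the mRNA of the transcription factor Xbp1, Atf6 is cleaved to a transcription factor, and PERK slows translation and favours that of Atf4, which acts upstream of Ddit3 (CHOP) and Trib3. Plasma cells need a large ER for antibody secretion, and Xbp1 is required for it. Marrow stromal cells are secretory too, since they release collagens and the chemokine Cxcl12.

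Many ER chaperone genes are known to share a promoter element. This ER stress response element (ERSE), bound by Atf6 together with NF-Y, is spelled CCAAT, then any 9 bases, then CCACG. Promoters of 300 bases, from 250 before to 50 after the start, were found in the RefSeq table (GRCm38.p6) for 30 members, and not for Atf6, Sec61a1, Manf and Hyou1. On either strand, the ERSE was present in 8 of the 30 (26.7%), namely Hspa5, Hsp90b1, Dnajc3, Creld2, Calr, Canx, Pdia6 and Syvn1, against 30 of 18574 genes (0.162%) with a promoter. The related ERSE-II, ATTGG and CCACG with any 1 base between them, was in 2 members, Dnajb11 and Herpud1 (6.67%, against 0.0592% of genes). ERSE and ERSE-II share letters, and no member's promoter held both. A match is a description of the letters and not evidence of binding. The stretches below carry the element in 3 genes whose levels differ most between the groups among those that hold it, in Herpud1, and in Hspa5 and Calr, the most abundant members of their roles. The capitals mark the conserved blocks of the element, read 5′ to 3′ on the strand of the gene.
Hspa5: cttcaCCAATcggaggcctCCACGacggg
Calr: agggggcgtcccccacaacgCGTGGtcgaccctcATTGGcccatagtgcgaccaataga
Hsp90b1: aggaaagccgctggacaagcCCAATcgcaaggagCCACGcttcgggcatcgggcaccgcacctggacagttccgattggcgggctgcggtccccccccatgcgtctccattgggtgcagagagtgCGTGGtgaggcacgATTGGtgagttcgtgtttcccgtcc
Creld2: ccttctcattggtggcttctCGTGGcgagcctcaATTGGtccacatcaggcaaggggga
Syvn1: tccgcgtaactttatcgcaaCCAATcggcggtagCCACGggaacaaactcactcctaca
Herpud1: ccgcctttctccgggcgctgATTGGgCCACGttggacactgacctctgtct
The Hspa5 stretch lies at chr2:34772020-34772048 on the forward strand, Creld2 at chr15:88819500-88819558 and Syvn1 at chr19:6046512-6046570, both forward, and Herpud1 at chr8:94386357-94386407, forward. Calr at chr8:84847055-84847113 and Hsp90b1 at chr10:86705513-86705676 are on the reverse strand. Calr and Creld2 hold the element in the opposite orientation, so that its reverse complement, CGTGG before ATTGG, appears in capitals. Hsp90b1 holds 2 copies, and Herpud1 holds ERSE-II. Edem1 and Edem2, the members called in aged against young controls below, hold neither motif in this window.

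Igkc differed widely between libraries of the same group. It was 34.8, 81.6 and 1477 FPKM (fragments per kilobase of transcript, scaled to mapped fragments) in young replicates 1 to 3, 173227, 32970 and 210878 in aged controls, and 1058, 235333 and 19821 in libraries labelled knockout. No gene exceeded it in the 3 aged controls or in labelled-knockout replicates 2 and 3. Immunoglobulin genes made up 0.0224% to 0.861% of summed FPKM in young controls, 54.6%, 17.3% and 70.7% in aged controls. In labelled-knockout replicates 1 to 3 the shares were 0.925%, 48.8% and 10.5%. The 34 members together came to 2793 to 3067 FPKM in young controls, 3042 to 5760 in aged controls and 3067 to 3514 in the labelled-knockout libraries.

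Stromal markers were present in every library, with 10 of 10 at 1 FPKM or more and sums of 9951 to 10137 FPKM in young controls, 4419 to 6394 in aged controls and 8149 to 10024 in the labelled-knockout libraries. Of 13 plasma cell markers, Xbp1 among them, 3 reached 1 FPKM in each young control (sums of 240 to 289 FPKM) and 13 in each aged control (737 to 2287). For replicates 1, 2 and 3 labelled knockout the numbers were 3, 12 and 13 (319, 1520 and 528 FPKM). Mzb1, a defining plasma cell chaperone, was at 0 in young replicates 1 and 3 and in labelled-knockout replicate 2, and Irf4 was at 0 in young replicates 1 and 3. Pan-leukocyte markers summed to 6.23 to 17.0 FPKM in young controls, 562 to 1182 in aged controls, and 5.80, 622 and 99.1 in the labelled-knockout libraries. Thbs1 itself was 74.98, 73.11 and 58.03 FPKM in young controls, 35.56, 41.89 and 36.85 in aged controls, and 24.28, 44.55 and 37.05 in libraries labelled knockout, whose ranges overlap those of aged controls (limma log2 difference -0.15, SE 0.26, adjusted p = 0.801). Which exons the allele removes is not stated, so this level does not check the label. Labelled-knockout replicate 2 stood apart, with the fewest genes above 0 (13503, against up to 18382). Its correlation with the other libraries was 0.738 to 0.811, which overlaps the 0.7731 to 0.9865 of the other pairs. With replicates 1 and 3 of its own group it was 0.7648 and 0.7941, while those correlated at 0.9481 with each other. Results without labelled-knockout replicate 2 are given below for the calls of Edem1, Edem2 and Hsp90b1 and for some of the slopes.

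**Figure D1:**
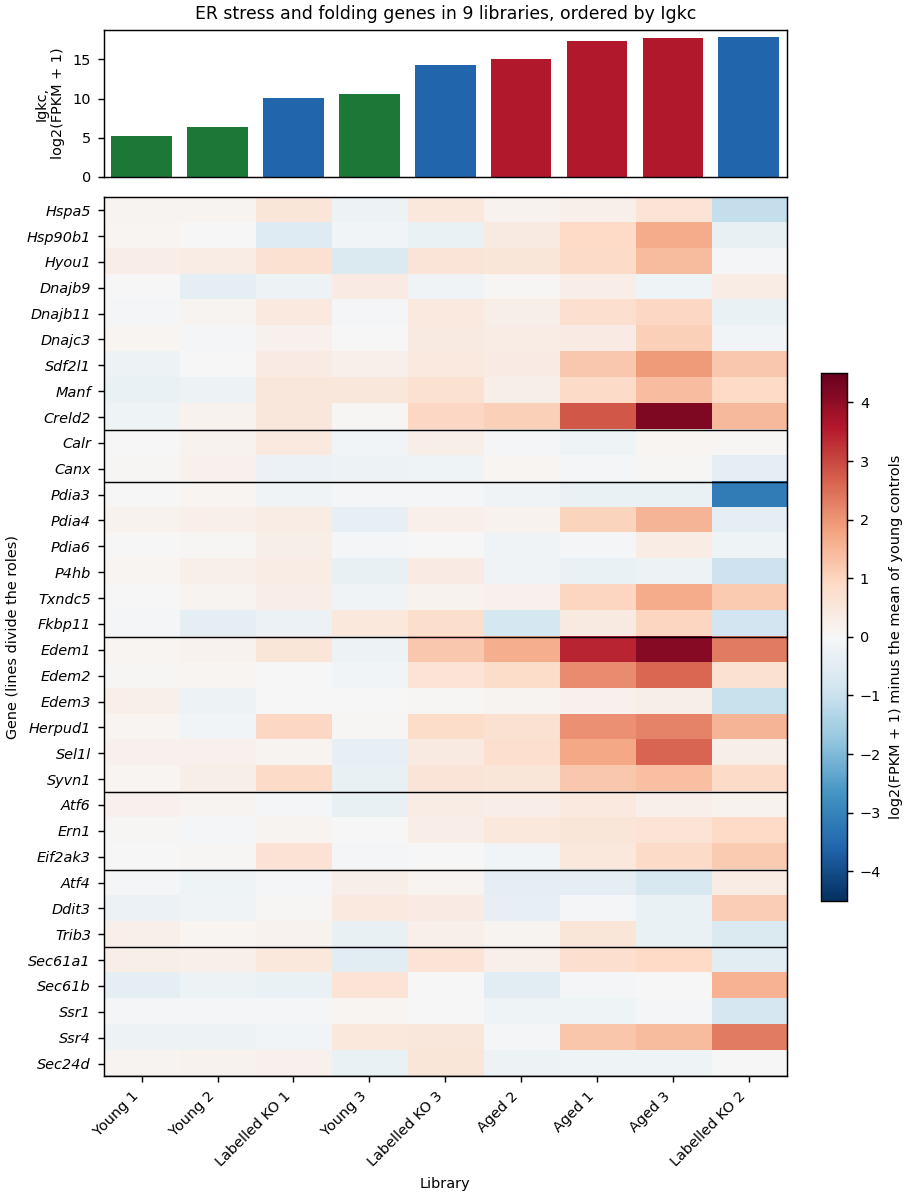
Each cell is the log2(FPKM + 1) of 1 gene (rows, grouped by role) in 1 library (columns, ordered by Igkc) minus the mean of the young controls, and the bars on top give Igkc as log2(FPKM + 1), green for young controls, red for aged controls and blue for the libraries labelled knockout (KO). Creld2, Edem1, Edem2, Herpud1 and Sel1l are darkest in aged replicates 1 and 3, and Pdia3 is dark blue in labelled-knockout replicate 2, at 32.1 FPKM.

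Aged controls were compared with young controls first. Edem1 and Edem2, mannosidase-like proteins that hand misfolded glycoproteins to degradation, were higher in aged than in young controls. The other degradation genes Herpud1, Sel1l and Syvn1, the co-chaperone Sdf2l1 and the secretory factor Creld2 were higher in every aged library than in every young one without passing the test. The abundant folding factors Calr, Canx, Pdia6 and P4hb overlapped between the groups, and Atf4 was lower in all 3 aged libraries. Of the 33 members that passed the filter (1 FPKM or more in 3 libraries, which Trib3 did not), 2 (6.06%) were called higher and 0 lower by limma at an adjusted p under 0.05, against 4.04% of 11988 genes called in either direction and 2.57% called higher and 1.47% lower. At an unadjusted p under 0.05 there were 16 of 33 members, and 2601 of the 11988 genes. The groups did not overlap, with aged higher, in 15 of the 33 (45.5%), against 7.02% of all tested genes, and with aged lower in 3 (9.09%), against 37.4%. The median log2 difference was 0.55 over the members, 25 of them positive, and -0.28 over all tested genes.

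Among the genes of ER-associated degradation, all 6 had a positive difference, 5 without overlap between the groups, with a median of 1.68. Edem1 (chromosome 6, 108828641 to 108859356, GRCm38, forward strand) was 9.82, 10.42 and 7.77 FPKM in young controls, 110.55, 30.81 and 174.01 in aged controls, and 13.87, 51.49 and 22.74 in labelled-knockout libraries. Every aged library was above every young one, and the aged library with the least Igkc was the lowest of the 3. The difference was 3.05 on the log2(FPKM + 1) scale (SE 0.63, limma adjusted p = 0.0337), from a mean of 9.34 ± 1.39 to 105 ± 71.8 FPKM (SD, n = 3).

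Edem2 (chromosome 2, 155701677 to 155729475, reverse strand), which starts the trimming of mannose, was 14.50, 14.82 and 12.67 FPKM in young controls, 63.60, 25.47 and 88.56 in aged controls, and 14.03, 22.97 and 22.16 in libraries labelled knockout. The young and aged ranges were again apart, with aged replicate 2 lowest of its group. Its log2 difference was 1.84 (SE 0.41, limma adjusted p = 0.0434). Edem3, the remaining family member, stayed between 5.29 and 7.81 FPKM over these 6 libraries.

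Sel1l, the adaptor of the Hrd1 ubiquitin ligase, was 26.27, 25.88 and 17.26 FPKM in young controls, 78.20, 39.21 and 145.16 in aged controls, and 24.92, 27.61 and 30.28 in libraries labelled knockout. Herpud1, a membrane component of the same complex and a classical ER stress target, was 65.81, 56.62 and 63.95 FPKM in young controls, 263.15, 99.38 and 293.94 in aged controls, and 117.85, 179.51 and 111.15 in libraries labelled knockout. Syvn1, which encodes the Hrd1 ligase, was 11.19, 12.76 and 8.08 FPKM in young controls, 25.96, 15.93 and 28.41 in aged controls, and 19.84, 20 and 16.26 in libraries labelled knockout. All 3 genes were higher in each aged control than in any young control. Their log2 differences were 1.71 for Sel1l (SE 0.42), 1.66 for Herpud1 (SE 0.40) and 1.05 for Syvn1 (SE 0.27), with limma adjusted p-values of 0.0535, 0.0533 and 0.0649.

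Among the 9 lumenal chaperones and co-chaperones, all had a positive difference (median 0.84), 7 without overlap, and 0 were called. Creld2, a stress-inducible ER protein with isomerase activity, was 38.17, 48.65 and 44.75 FPKM in young controls, 307.89, 93.28 and 813.36 in aged controls, and 62.91, 122.81 and 83.74 in libraries labelled knockout. It was the most abundant member in aged replicate 3, whereas Hspa5 was most abundant in the other aged and all young libraries. Its log2 difference was 2.69 (SE 0.65, limma adjusted p = 0.0530). Hspa5 (BiP), the main Hsp70 of the ER, was 436.46, 438.46 and 342.50 FPKM in young controls, 475.35, 447.81 and 624.59 in aged controls, and 584.39, 193.54 and 565.82 in libraries labelled knockout. Its young and aged ranges did not overlap but lay close together, and the log2 difference was 0.34 (SE 0.42, adjusted p = 0.672).

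Other chaperones and co-chaperones also had positive differences that did not pass. Sdf2l1, which works in a complex with Dnajb11, differed by 1.17 (SE 0.39, limma adjusted p = 0.129) and Dnajb11 by 0.65 (adjusted p = 0.221). Hyou1, a nucleotide exchange factor, differed by 0.95 (adjusted p = 0.172), Manf, a secreted stress factor, by 0.84 (adjusted p = 0.184) and Dnajc3 by 0.59 (adjusted p = 0.220). Dnajb9, which restrains IRE1, overlapped between the groups at 43.36 to 73.80 FPKM in young and 49.57 to 69.88 in aged controls. Hsp90b1, the Hsp90 of the ER, differed by 0.998 (SE 0.32, adjusted p = 0.114), and its values per library follow below.

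The enzymes and lectins that handle glycoproteins and disulfides showed less. Calr, a lectin chaperone and calcium store, was 300.50, 345.23 and 281.20 FPKM in young controls, 267.12, 291.06 and 329.91 in aged controls, and 414.82, 321.68 and 371.36 in libraries labelled knockout. P4hb, protein disulfide isomerase and a subunit of collagen prolyl hydroxylase, was 351.18, 380.48 and 262.63 FPKM in young controls, 263.40, 293.94 and 280.25 in aged controls, and 413.97, 169.20 and 426.80 in libraries labelled knockout. Both genes overlapped between young and aged controls. Canx was 90.5 ± 13.0 FPKM in young and 90.8 ± 5.67 in aged controls (SD, n = 3), and Pdia6 was 209 ± 11.2 and 214 ± 42.9. Txndc5 and Pdia4, both disulfide isomerases, had log2 differences of 0.94 (SE 0.40, limma adjusted p = 0.207) and 0.89 (SE 0.38, adjusted p = 0.210). Pdia3, the partner of the lectin chaperones, was 274 to 313 FPKM in young and 236 to 260 in aged controls, which do not overlap. Fkbp11, a prolyl isomerase of secretory cells, overlapped at 22.7 to 42.3 and 16.8 to 60.3 FPKM.

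Of the sensors, Ern1 was 1.57 to 1.82 FPKM in young and 2.81 to 3.16 in aged controls (log2 difference 0.55, SE 0.24, limma adjusted p = 0.220) and Atf6 was 3.49 to 5.45 and 5.55 to 6.52 (0.32, SE 0.22, adjusted p = 0.434). Both were higher in every aged library. Eif2ak3, with the highest mean of the sensors over all libraries, was 3.80, 4.10 and 3.77 FPKM in young controls, 5.81, 3.54 and 7.97 in aged controls, and 6.58, 9.96 and 3.90 in libraries labelled knockout, with overlap between all groups. RNA levels of sensors do not report their activation or the splicing of Xbp1, which the table does not hold.

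Of the genes downstream of PERK, Atf4 and Ddit3 were tested and neither passed. Atf4 was 146.67, 138.33 and 188.63 FPKM in young controls, 114.64, 117.42 and 94.23 in aged controls, and 151.96, 198.57 and 171.88 in libraries labelled knockout. All aged controls were below all other libraries, with a log2 difference from young of -0.53 (SE 0.23, limma adjusted p = 0.216). Ddit3 overlapped between young and aged controls, and Trib3, a pseudokinase induced by Ddit3, was at or under 1.27 FPKM in every library and was not tested. Of the translocation and export genes, 2 of 5 had a positive difference, and the largest was that of Ssr4 at 0.86 (SE 0.62, adjusted p = 0.452).

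**Figure D2:**
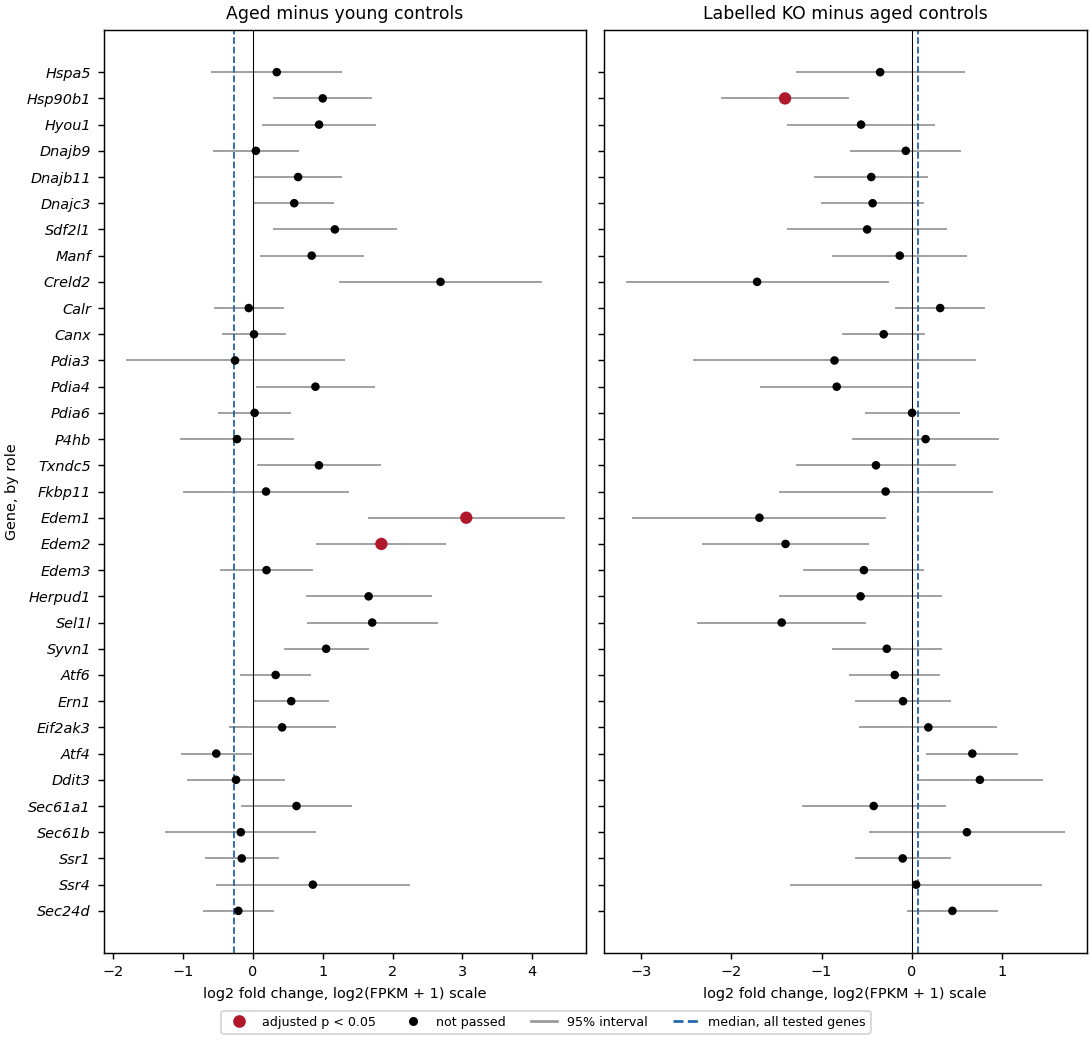
Points are log2 differences on the log2(FPKM + 1) scale for the 33 tested genes (rows, in role order) with 95% intervals, for aged minus young controls on the left and the libraries labelled knockout minus aged controls on the right, and the dashed line is the median of all tested genes. Edem1 (3.05) and Edem2 (1.84) on the left and Hsp90b1 (-1.40) on the right are the points in red, which passed at an adjusted p under 0.05.

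Markers of other cells moved with these genes. The plasma cell and pan-leukocyte sums above were higher in each aged than in each young control, as were those of 10 B lineage markers, at 276 to 1870 against 49.4 to 85.6 FPKM (6 at 1 FPKM or more in each aged and 2 to 3 in each young control, with Pax5 and Blk at 0 in every aged one). Osteoblast markers summed to 1860 to 2944 FPKM in aged against 9233 to 11999 in young controls, with 9 of 9 differences negative and 5 called lower by limma. Chondrocyte markers summed to 41.7 to 64.2 against 145 to 362 FPKM, with 9 of 9 negative and 0 called (5 at an unadjusted p under 0.05). The part of these markers in the result was not tested. In bulk RNA, fewer cells of a type and less RNA per cell cannot be told apart. With log2 Igkc as a covariate, 0 members passed by limma in this comparison (7 at an unadjusted p under 0.05). Of all 11988 genes 0.0167% passed, against 4.04% without the covariate. Igkc itself differed by 9.35 log2 units between these groups, without overlap, so this fit can hardly separate Igkc from group. The differences were 1.26 for Edem1 (limma adjusted p = 0.434) and 0.97 for Edem2 (adjusted p = 0.409). In that fit 12 of the 33 differences changed sign, 7 to below 0 (Dnajb9, Sdf2l1, Manf, Fkbp11, Ern1, Eif2ak3 and Ssr4) and 5 to above 0 (Calr, Pdia3, P4hb, Ssr1 and Sec24d). The median over all 11988 genes also changed sign, from -0.28 to 0.18. Sign changes were not counted over all genes. The abundant immunoglobulin RNA takes up part of each library's total. Rescaling the libraries by median ratios moved the median of all genes from -0.28 to 0.00, and 32 of 33 members then had a positive difference (median 0.78). Edem1 alone was called there (3.03% of members, against 3.57% of all genes). Leaving out 1 library changed the calls. Edem1 passed without aged replicate 2 or any 1 labelled-knockout library, and did not pass without young replicates 1, 2 or 3 or aged replicates 1 or 3 (adjusted p = 0.122, 0.119, 0.138, 0.216 and 0.0868). Edem2 passed without aged replicate 2 or labelled-knockout replicates 1 or 2, and did not pass without labelled-knockout replicate 3 (adjusted p = 0.0629) or the same 5 control libraries (adjusted p = 0.118 to 0.259). Without labelled-knockout replicate 2, 10 members (30.3%) were called higher, adding Hsp90b1, Dnajb11, Sdf2l1, Creld2, Herpud1, Sel1l, Syvn1 and Ern1. In that fit 611 of 11823 genes were called higher and 2118 lower (23.1% in all).

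Which members follow immunoglobulin reads was then asked within the groups, as the slope of log2(FPKM + 1) on log2 Igkc beside the group means. Igkc spanned 5.37 log2 units among young controls, 2.68 among aged controls and 7.80 among the libraries labelled knockout. By limma, 0 of 33 members passed at an adjusted p under 0.05, against 0.0168% of 11915 genes. An unadjusted p under 0.05 was reached by 8 of 33 members and by 3869 of the 11915 genes. The median slope was 0.0258 per doubling of Igkc over the members, 17 of 33 positive, and -0.0456 over all genes.

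The 2 steepest positive slopes among the members belonged to small components of translocation into the ER, Ssr4 and Sec61b. Sec61b (chromosome 4, 47474658 to 47483242), the beta subunit of the translocon, was 82.04, 93.38 and 167.45 FPKM in young controls, 105.99, 75.34 and 111.16 in aged controls, and 88.91, 325.66 and 110.39 in libraries labelled knockout. In each group its highest library was the one with the most Igkc and its lowest the one with the least, but the young library with 1477 FPKM of Igkc held more Sec61b than any aged control. The slope was 0.22 per doubling (SE 0.0393, limma adjusted p = 0.0730). Ssr4 (chromosome X, 73787028 to 73790830), the delta subunit of the translocon-associated protein complex, was 33.19, 32.89 and 55.02 FPKM in young controls, 93.63, 37.19 and 105.66 in aged controls, and 36.22, 201.55 and 55.58 in libraries labelled knockout, with a slope of 0.28 (SE 0.0548, adjusted p = 0.0730). Exons of Ddit3 (chromosome 10, 127290774 to 127296288) overlap those of another gene model of that name, of Mars and of Gm4189. Ddit3 was 11.20, 12.03 and 18.90 FPKM in young controls, 13.07, 10.26 and 11.01 in aged controls, and 14.34, 30.50 and 17.97 in libraries labelled knockout. Its slope was 0.13 (SE 0.0300, limma adjusted p = 0.0730), less steep than those of Edem1 and Creld2 given below. In all 3 genes labelled-knockout replicate 2 was the highest of the 9 libraries. Without that library the slopes were 0.16 for Sec61b, 0.20 for Ssr4 and 0.11 for Ddit3 (adjusted p = 0.246, 0.247 and 0.247).

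Genes with the largest aged minus young differences had shallower slopes than Sec61b. Edem1 had a slope of 0.19 (SE 0.0891, limma adjusted p = 0.171), and the labelled-knockout libraries ranked as Igkc did. Without labelled-knockout replicate 2 its slope was 0.14 (adjusted p = 0.586). Slopes were 0.16 for Creld2 (adjusted p = 0.268), 0.10 for Herpud1 (adjusted p = 0.291) and 0.09 for Edem2 (adjusted p = 0.330). Sdf2l1 and Manf had slopes of 0.13 and 0.11 (adjusted p = 0.139 and 0.125). The negative end held Pdia3 at -0.24, Hspa5 at -0.13 and P4hb at -0.13 (adjusted p = 0.126, 0.149 and 0.102). These 3 were lowest of all 9 libraries in labelled-knockout replicate 2, where Pdia3 was 32.13 FPKM, 0.117 times the mean of replicates 1 and 3. Without that library the slope of Pdia3 was -0.01 (adjusted p = 0.873), that of Hspa5 -0.02 (adjusted p = 0.834) and that of P4hb -0.05 (adjusted p = 0.551).

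**Figure D3:**
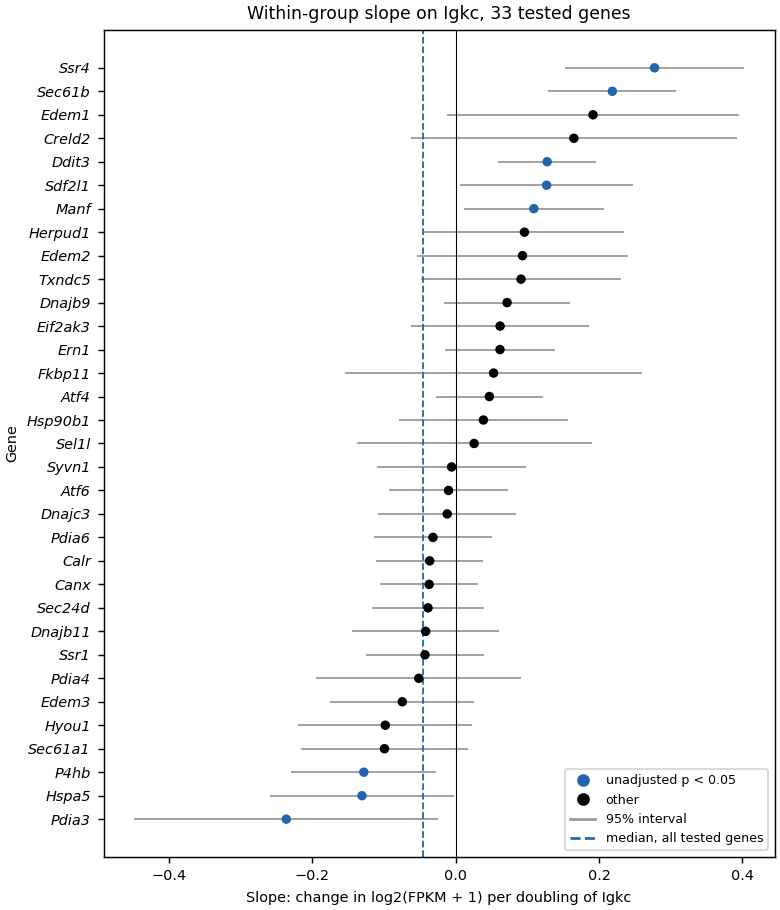
Points are within-group slopes of log2(FPKM + 1) per doubling of Igkc for the 33 tested genes, ordered by slope, with 95% intervals, blue where the unadjusted p was under 0.05, and the dashed line is the median of all tested genes (-0.0456). Ssr4 (0.28) and Sec61b (0.22) are at the top and Pdia3 (-0.24) at the bottom.

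The order of the libraries was also counted, from the same values as the slopes, so it is not separate evidence. Sdf2l1, Manf and Sec61b ranked the libraries as Igkc did in 9 of 9 within-group pairs, which is 3 of 33 members (9.09%) against 0.73% of all genes. With Creld2, Ddit3 and Ssr4, 6 members (18.2%) did so in 8 or more pairs, against 2.85%. In aged controls alone, 24 of 34 members had the order of Igkc, with replicate 3 highest and replicate 2 lowest, against 6.31% of all genes. The aged library richest in Igkc was not the richest library of all: labelled-knockout replicate 2 held 235333 FPKM of Igkc. That library was the highest of its group for 15 of the 34 members and the lowest for 16, against 28.4% and 62.4% of all genes. Of the 24 members that followed Igkc among aged controls, 12 were highest and 10 lowest there.

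Edem1 and Edem2 were both among the members highest of the group in labelled-knockout replicate 2, by different margins. Edem1 in labelled-knockout replicate 2 was 2.81 times the mean of replicates 1 and 3, but at 51.49 FPKM it was below aged replicates 1 and 3, which held less Igkc. Edem2 there was 22.97 FPKM, next to 22.16 in replicate 3, which held 19821 FPKM of Igkc. Sel1l in that library was 27.61 FPKM, between replicates 1 and 3, and Hsp90b1 was 1.07 times their mean, while both were highest in aged replicate 3.

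**Figure D4:**
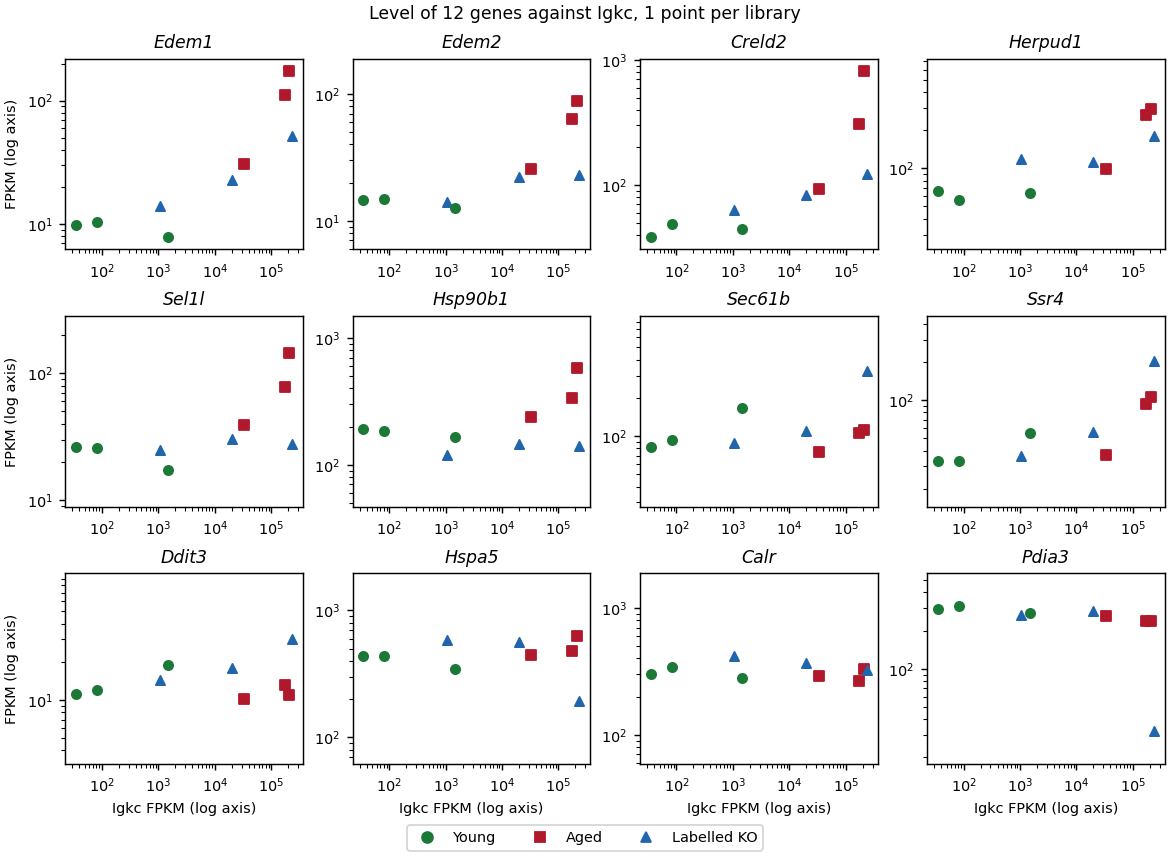
Each panel plots 1 gene's FPKM against Igkc FPKM, both on log axes, with 1 point per library (green circles young controls, red squares aged controls, blue triangles libraries labelled knockout). Sel1l and Hsp90b1 are high in aged controls but not in the labelled-knockout library with 235333 FPKM of Igkc, whereas Sec61b and Ssr4 are highest there, at 325.66 and 201.55 FPKM.

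The libraries labelled knockout were then compared with the same aged controls. Hsp90b1, which folds integrins, Toll-like receptors and immunoglobulin chains, fell. Sel1l, Edem2, Edem3 and Canx were lower in every labelled-knockout library than in every aged control, and Atf4, Ddit3 and Sec24d were higher in every one, none passing the test. Of 33 members, 0 were called higher and 1 lower by limma (3.03%), against 3.48% of 11988 genes in either direction, 1.52% higher and 1.96% lower. At an unadjusted p under 0.05 there were 7 of 33 members, and 2379 of the 11988 genes. Groups without overlap were counted for 5 members on the lower side (15.2%, against 6.54% of all genes) and 3 on the higher side (9.09%, against 16.6%). The median log2 difference was -0.31 over the members, 9 positive, and 0.07 over all genes.

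Hsp90b1 (chromosome 10, 86690209 to 86705509, reverse strand) was 189.91, 183.19 and 164.79 FPKM in young controls, 335.44, 237.39 and 577.88 in aged controls, and 119.90, 141.31 and 144.36 in libraries labelled knockout. The labelled-knockout libraries were below all 6 controls. Their Igkc ran from 1058 FPKM to 235333 in replicate 2, the library that stood apart. The cause of the lower level was not tested. The log2 difference from aged controls was -1.40 (SE 0.32, limma adjusted p = 0.0474), and with Igkc as a covariate it was -1.30 (adjusted p = 0.0481). The call was kept without labelled-knockout replicate 2 (-1.44, adjusted p = 0.0259) and lost without any 1 of the other 8 libraries (-1.70 to -1.06, adjusted p = 0.0641 to 0.220). Exons of Hsp90b1 overlap those of 1810014B01Rik and 2 other gene models, and the sources used here do not say whether counting used strand.

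Of the degradation genes, whose values per library are above, Sel1l differed by -1.44 (SE 0.42, limma adjusted p = 0.101), Edem2 by -1.40 (SE 0.41, adjusted p = 0.108) and Edem1 by -1.69 (SE 0.63, adjusted p = 0.178). Creld2 differed by -1.71 (SE 0.65, adjusted p = 0.186). Herpud1 and Syvn1 differed by -0.57 and -0.28 (adjusted p = 0.474 and 0.619). Without labelled-knockout replicate 2, Edem1 (-2.18, limma adjusted p = 0.0399) and Edem2 (-1.52, adjusted p = 0.0489) passed beside Hsp90b1 (9.09% of members, all lower). In that fit 530 of 11823 genes were called lower and 1365 higher (16% in all). Plasma cell and pan-leukocyte marker sums overlapped between these groups through that library. Of 9 chondrocyte markers, 9 reached 1 FPKM in each labelled-knockout library against 3 to 4 in aged controls, and their sums were 1238, 176 and 3361 FPKM against 41.7 to 64.2, with all 9 differences positive and 6 called higher by limma. The 9 osteoblast markers, all at 1 FPKM or more in every library, summed to 6049, 2594 and 10390 FPKM against 1860 to 2944, with all 9 differences positive and 4 called higher. The part of these other cells' RNA in the result was not tested.

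Atf4 was higher than in aged controls by 0.67 on the log2 scale (SE 0.23, limma adjusted p = 0.144), and Ddit3, the apoptosis-linked factor CHOP, by 0.76 (SE 0.31, adjusted p = 0.218). Their ranges, 152 to 199 and 14.3 to 30.5 FPKM, were above those of the aged controls and overlapped those of young controls. With Igkc as a covariate, both passed (Atf4 0.80, limma adjusted p = 0.0491, and Ddit3 1.09, adjusted p = 0.0294), as did Sec61b (1.19, adjusted p = 0.0366). In that fit 638 of 11988 genes were called higher and 402 lower (8.68% in all). Sec24d, a cargo adaptor of COPII vesicles, was 31.12, 27.15 and 40.19 FPKM against 23.52, 23.03 and 23.72 in aged controls (0.45, SE 0.22, adjusted p = 0.301). Canx was 73.2 ± 6.92 FPKM against 90.8 ± 5.67 (SD, n = 3; -0.31, SE 0.20, adjusted p = 0.439).

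Against young controls, 0 of 33 members were called in the libraries labelled knockout by limma, against 0.025% of 11988 genes (0.00834% higher and 0.0167% lower). An unadjusted p under 0.05 was reached by 1035 of the 11988 genes and by 2 members. The 2 members were Syvn1, with a log2 difference of 0.77 (SE 0.27, adjusted p = 0.496), and Herpud1, with 1.09 (SE 0.40, adjusted p = 0.516). Edem1 differed by 1.37 (SE 0.63, adjusted p = 0.593). In 8 members (24.2%, against 4.08% of all genes) every labelled-knockout library was above every young control: Sdf2l1, Manf, Creld2, Txndc5, Edem1, Herpud1, Syvn1 and Ern1. Hsp90b1 was the 1 member (3.03%, against 13.4%) below every young control. Labelled-knockout replicate 1 had 1058 FPKM of Igkc, less than young replicate 3, and 3 of 13 plasma cell markers at 1 FPKM, as in young controls. It held 117.85 FPKM of Herpud1 against at most 65.81 in young controls, and 19.84 FPKM of Syvn1 against at most 12.76. Its levels of Edem2 (14.03) and Sel1l (24.92) were within the young ranges of 12.67 to 14.82 and 17.26 to 26.27. The part of plasma cell RNA in these levels was not tested.

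Members with an ERSE differed among themselves. Of the 8, 5 were higher in every aged than in every young control (62.5%, against 7.02% of all tested genes). Over all 33 tested members, with or without the element, that share was 45.5%. A positive difference was found in 7 of the 8 (median 0.46, against 0.55 over the members). By limma 0 were called, against 4.04% of all tested genes. Creld2, Syvn1 and Hsp90b1 stood at 2.69, 1.05 and 0.998, while Calr, Canx and Pdia6, with the element in the same 300 bases, had group means in aged controls within the range of the young libraries.

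Other genes of the same pathways, from 5 lists, were called at about the rate of all genes in aged against young controls, with 4 of 127 (3.15%) against 4.04%. In the list of further unfolded protein response and degradation genes, 1 of 26 was called higher and 0 lower by limma (median -0.00). Of integrated stress response genes 1 of 22 was higher and 1 lower (median 0.01), and of ER folding and oxidation genes 0 of 27 were higher and 1 lower (median -0.37). Of translocation genes 0 of 27 and of ER to Golgi transport genes 0 of 25 were called (medians -0.09 and -0.18), with 5 in each list at an unadjusted p under 0.05. The gene called in the first list was Derl3, a Derlin of the channel that returns proteins to the cytosol, named after its value was seen. It was 0.18, 0.42 and 0.92 FPKM in young controls and 55.24, 11.94 and 110.06 in aged controls (log2 difference 4.87, SE 1.08, adjusted p = 0.0414). Xbp1 was 121.79, 118.97 and 164.44 FPKM in young controls, 541.90, 190.49 and 684.40 in aged controls, and 145.62, 272.36 and 158.73 in libraries labelled knockout. Its ranges in young and aged controls did not overlap (1.62, SE 0.47, adjusted p = 0.0892), and the difference passed without labelled-knockout replicate 2 (adjusted p = 0.0283).

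Atf3, a stress factor downstream of Atf4, was 141.63, 93.15 and 86.15 FPKM in young controls, 21.81, 25.80 and 21.17 in aged controls, and 167.26, 148.14 and 236.15 in libraries labelled knockout. It was lowest in aged controls, like Atf4, and passed in both comparisons (-2.14 against young, limma adjusted p = 0.00763, and 2.93 in the libraries labelled knockout against aged, adjusted p = 0.00191), which share the aged controls. Slc7a5, an amino acid transporter induced by Atf4 and abundant in activated lymphoid cells, had the opposite course at 0.85 to 1.11, 14.90 to 22.97 and 1.54 to 7.10 FPKM (3.28, adjusted p = 0.00579, and -1.98, adjusted p = 0.0313). Fkbp7, an ER prolyl isomerase, was lower by 1.32 in aged than in young controls (limma adjusted p = 0.0259).

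In the libraries labelled knockout against aged controls, the other calls in these lists were higher: P3h1, a collagen prolyl hydroxylase (1.23, limma adjusted p = 0.0343), and the KDEL receptors Kdelr3 (1.23, adjusted p = 0.0387) and Kdelr2 (1.36, adjusted p = 0.0483), which return ER proteins from the Golgi. The KDEL receptors were named after their values were seen. Against young controls, and for the slope on Igkc, 0 of 127 genes of the 5 lists were called by limma, with 7 and 48 at an unadjusted p under 0.05. The smallest p-values against young controls were those of Slc7a5 (1.30, adjusted p = 0.423), Srp68, a subunit of the signal recognition particle (0.64, adjusted p = 0.464), and Atf3 (0.78, adjusted p = 0.483). The smallest p-values of the slope belonged to Sec61g, the gamma subunit beside Sec61b (0.22, adjusted p = 0.0730), Spcs1, a signal peptidase subunit (0.21, adjusted p = 0.0730), and Derl3 (0.48, adjusted p = 0.0730). Sec61g and Spcs1 were highest of all libraries in labelled-knockout replicate 2, at 141.34 and 709.73 FPKM, and next highest in young replicate 3, at 83.52 and 422.33 FPKM. Without that labelled-knockout library the slopes were 0.17 for Sec61g, 0.17 for Spcs1 and 0.36 for Derl3 (adjusted p = 0.246, 0.247 and 0.274).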

How the data were processed

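Gene expression was measured by RNA sequencing of sorted marrow stromal cells in 9 libraries. The authors deposited FPKM per gene, rounded to 2 decimals, per the file headers and values; STAR, edgeR, FastQC 0.11.5 and GRCm38 (mm10) are named, without roles, in the submitters' processing notes. Annotation, counter and strandedness: not given in the sources used here. Since FPKM is relative to a library's total, abundant immunoglobulin RNA lowers all other values. Steps between low values, with GENCODE M21 lengths (30192 of 30579 genes, 98.7%), gave 17.7 to 27.6 M reads (M, mega) per library, so that 3 reads in a 2 kb gene are 0.0544 to 0.0847 FPKM (counting error only).

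Columns were matched to samples by title. Tests used limma 3.58.1 in R 4.3.3 with an intensity trend on log2(FPKM + 1), which understates changes of low genes, for the 11988 genes with at least 1 FPKM in at least 3 libraries. The 9 libraries entered 1 fit of group means (6 residual degrees of freedom). The slope fit added log2(Igkc + 1), left out immunoglobulin genes (11915 genes) and had 5. P-values were adjusted by Benjamini-Hochberg over all tested genes at 0.05, and the scripts were tested on simulated data. Figures used Python 3.11.15 and matplotlib 3.10.9.

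The members and lists were chosen with earlier results of these data known. Values in every library are given for called members, the 3 smallest p of each fit and the most abundant member of each role; other pathway genes are the 3 smallest p of each fit, with Xbp1 by rule and Derl3, Kdelr2 and Kdelr3 because they were called. Alternatives were another pseudocount, other filters, rescaling with and without immunoglobulin genes, a replicate block, the compared groups only, Igkc or the immunoglobulin share as covariate, a slope without group means, and each library left out. Replicate numbers were not taken to pair libraries, because deviations of same-numbered libraries correlated at -0.288 to 0.302 over 9 pairs. A count test was not run, since the deposited values are not counts.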

Additional observations from a re-analysis of the deposited data

How the results depend on the processing

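The number of members called in aged against young controls was 2. It was 0 without a filter (against 0.608% of all genes) and 5 (15.6%, against 5.12%) at a minimum of 5 FPKM. Under median-ratio rescaling it was 1 (3.03%, against 3.57%), and with immunoglobulin genes left out 1 (3.03%, against 3.32%). With Igkc as covariate it was 0 (against 0.0167%). In a fit of the compared groups only it was 7 (21.2%, against 18.7% of all genes). Those 7 were all higher, and 546 of 11525 genes were called higher and 1609 lower. Leaving out 1 library at a time gave 0 to 10, when 0.0342% to 23.1% of all genes were called. In the libraries labelled knockout against aged controls the number was 1. It was 0 with a pseudocount of 0.1 (against 2.92% of all genes), without a filter (0.405%) and at 5 FPKM (2.76%). It was also 0 under median-ratio rescaling (4.43%), with immunoglobulin genes left out (4.3%) and in the fit of the compared groups only (0.122%). With Igkc as covariate it was 4 (12.1%, against 8.68%). Leaving out 1 library at a time gave 0 to 3, when 0.111% to 16% of all genes were called. Against young controls it was 0 under every alternative run. For the slope it was 0, but 2 (Edem1 and Herpud1, 6.06%, against 1.44% of all genes) without group means. Leaving out 1 library gave 0 to 5, with 5 (Pdia3, P4hb, Ddit3, Sec61b and Ssr4) without labelled-knockout replicate 3, where 19.2% of all genes were called (members 15.2%). The cause was not tested.

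With the replicate number as a block, 0 members were called in aged against young controls, against 1% of all genes. In the libraries labelled knockout against aged controls 0 were called as well, against 0.534%. For the slope 3 were called (Pdia3, Sec61b and Ssr4, 9.09%, against 8.27% of all genes). The libraries share only a number. Rescaling without labelled-knockout replicate 2 was chosen after seeing the data. In the first comparison it gave 8 members (24.2%, against 10.7% of all genes), or 10 (30.3%, against 10.7%) with immunoglobulin genes also left out. These were all higher, as were 820 of 11835 and 796 of 11768 genes. In the second it gave 1 (3.03%, against 11.4%) or 2 (6.06%, against 11.5%), all lower, as were 807 of 11835 and 791 of 11768 genes. Over all 33 tested members and 4 fits, 193 of 2504 values under alternatives had the opposite sign, in 65 of 132 effects. For the 50 effects chosen for the text because their sign was mostly stable, it was 6 of 948. With Igkc as covariate the aged minus young difference was -0.0148 for Sdf2l1, -0.18 for Manf, -0.0319 for Ern1 and -1.74 for Ssr4, and the slope of Pdia3 was 0.0012 under both rescalings without labelled-knockout replicate 2. Depth was not the limit for the members other than Trib3, which lay at 0.00 to 1.27 FPKM.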

Other observations

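The ERSE letters occur in 22 further genes with a promoter, of which 9 passed the filter. In aged against young controls, 3 of the 9 had a positive difference (median -0.33), 1 was called higher by limma and 0 lower. The gene called was Derl3, with 4.87 on the log2 scale. Calr4, a calreticulin paralog, had -0.87 (SE 0.28, limma adjusted p = 0.118). In the libraries labelled knockout against aged controls 5 of the 9 were positive, and 0 were called by limma, with 1 at an unadjusted p under 0.05. These values were looked up after the members' promoters had been seen.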
